A study of Mus musculus with 48 samples.

Results

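With earlier results of these data known, 46 mouse genes of the cell division cycle were chosen by name from general knowledge of the cycle. These genes are described here across cultured liver and blood macrophages. Of these, 42 were measured among the 19505 genes on the array: 13 genes of DNA replication, 22 of mitosis, 4 G1 cyclins and kinases (Ccnd2, Ccne1, Ccne2 and Cdk2), 2 transcription factors (E2f1 and Mybl2) and 1 inhibitor (Cdkn1a). Mcm7, Ccnb1, Ccnd1 and Foxm1 were not analysed here. The series holds 48 Affymetrix arrays in 16 groups of 3, from male Balb/c mice. Kupffer cells are macrophages that reside in the liver, and they were sorted by the surface antigen F4/80. The monocytic macrophages came from blood monocytes of these animals, sorted by CD115. Each culture had 1 day with MCSF, the macrophage growth factor, and then 1 or 3 more days with HGF (hepatocyte growth factor), with Ito cells (hepatic stellate cells), with CD146 cells (sinusoidal endotheliocytes), or with MCSF alone as the control, so that controls had 2 or 4 days of MCSF in all. The labels do not say whether MCSF went on beside an addition, so an addition and the end of MCSF cannot be told apart in any comparison with the control. HGF groups are described as HGF after the MCSF day, with no dose given. The labels call the replicates biological without naming the animals, and do not tell if added Ito or CD146 cells still lay in the wells when RNA was taken. If replicates share a culture or an animal, p-values measure only the spread between these samples.

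A cell that divides first builds a replication machinery: the MCM helicase is loaded on DNA with the help of Cdc6 and Cdt1, nucleotides come from ribonucleotide reductase (Rrm1, Rrm2), thymidylate synthase (Tyms) and thymidine kinase (Tk1), and the sliding clamp Pcna holds the polymerases on the template. Later, cyclin A2 and cyclin B2 with the kinase Cdk1 drive entry into mitosis, where Plk1 and the Aurora kinases, kinesins such as Kif11, kinetochore proteins such as Cenpe and the spindle checkpoint kinases Bub1 and Bub1b act, until Cdc20 and Ube2c serve the ubiquitin ligase that ends mitosis. Most of these genes are transcribed only in cycling cells, with E2F factors acting on the replication genes and the MuvB complex on the mitosis genes through a short element called CHR, often beside CCAAT boxes bound by NF-Y. Adult tissue macrophages cycle slowly and can renew themselves, whereas blood monocytes are generally not dividing.

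Promoters of members from both classes are shown because the classes are known for different elements. Sequences are from RefSeq on the build GRCm38.p6, 5′ to 3′ on the strand of the gene, upstream of the annotated start, and capitals mark every match on either strand to CHR (TTTGAA), to CCAAT, or to the E2F words TTTCCCGC, TTTCGCGC, TTTGCCGC and TTTGGCGC. A match on the other strand reads TTCAAA for CHR and ATTGG for CCAAT, and in Mcm5 and Mcm6 E2F words on opposite strands overlap and run together. Ube2c (chr2:164769809-164769928, plus strand), Top2a (chr11:99024200-99024309, minus strand), Cdk1 (chr10:69352913-69353032, minus strand) and Kif11 (chr19:37376262-37376381, plus strand) are mitosis genes. Mcm5 (chr8:75109349-75109467, plus strand) and Mcm6 (chr1:128359706-128359865, minus strand) are replication genes, and Cdk2 (chr10:128705052-128705211, minus strand) is the G1 kinase.
Ube2c: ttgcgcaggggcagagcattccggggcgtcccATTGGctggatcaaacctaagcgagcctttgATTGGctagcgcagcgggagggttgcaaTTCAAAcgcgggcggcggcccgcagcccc
Top2a: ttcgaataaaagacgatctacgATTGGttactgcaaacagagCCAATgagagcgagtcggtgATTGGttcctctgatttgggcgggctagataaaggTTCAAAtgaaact
Cdk1: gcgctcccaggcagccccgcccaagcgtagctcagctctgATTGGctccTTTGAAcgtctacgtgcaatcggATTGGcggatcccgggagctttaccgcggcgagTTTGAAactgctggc
Kif11: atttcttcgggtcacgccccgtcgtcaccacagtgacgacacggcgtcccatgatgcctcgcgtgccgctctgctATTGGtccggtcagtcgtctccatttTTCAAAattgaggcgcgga
Mcm5: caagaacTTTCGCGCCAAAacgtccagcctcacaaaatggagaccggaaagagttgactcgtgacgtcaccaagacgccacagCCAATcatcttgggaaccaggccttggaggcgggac
Mcm6: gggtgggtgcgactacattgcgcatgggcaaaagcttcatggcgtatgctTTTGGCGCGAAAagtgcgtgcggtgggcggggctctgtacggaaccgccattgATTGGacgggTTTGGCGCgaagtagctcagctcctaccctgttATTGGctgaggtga
Cdk2: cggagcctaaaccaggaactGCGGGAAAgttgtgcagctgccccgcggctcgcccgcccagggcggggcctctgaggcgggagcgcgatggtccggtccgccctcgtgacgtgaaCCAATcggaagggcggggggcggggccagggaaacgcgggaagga

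RefSeq promoters (250 bases before to 50 after the start) were matched for 33 of the 42 measured genes. The CHR letters stood in 13 of 17 mitosis promoters (76.5%) and in 1 of 11 replication promoters (9.09%), against 17.9% of all 32851 promoters of that length. Before the start alone, 7 of the 17 mitosis promoters (41.2%) and 1 of the 11 replication promoters held it, against 5252 of all 32851, and in the other 6 (Cenpf, Bub1b, Aurka, Cdca8, Cdca3 and Plk1) the letters lay only after the start, outside the stretches printed here. All 13 mitosis promoters with a CHR also held CCAAT, a combination in 6.95% of all promoters, and 11 of the 17 (64.7%) held CCAAT at least 2 times, against 11.7% of all promoters. CCAAT stood in 15 of 17 mitosis promoters (88.2%) and 7 of 11 replication promoters (63.6%), against 37.4% of all. E2F words went the other way: they stood in 5 of 11 replication promoters (45.5%) and 1 of 17 mitosis promoters (5.88%), against 2.26% of all. Before the start alone they stood in 3 of 11 replication promoters (27.3%), against 1.86% of all. Counting the base before the start as position -1, the CHR letters lay at positions -29 to -24 in Ube2c, -23 to -18 in Top2a (with another at -179 to -174, upstream of the printed stretch) and -19 to -14 in Kif11, while Cdk1 had them at both -71 to -66 and -15 to -10. The printed stretches end at position -1, except those of Top2a, which ends at -11, and Mcm5, which ends at -42. None of these letters stood in the windows of E2f1, Mybl2 and Cdkn1a. These matches are letters in a window, and binding was not measured.

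**Figure D1:**
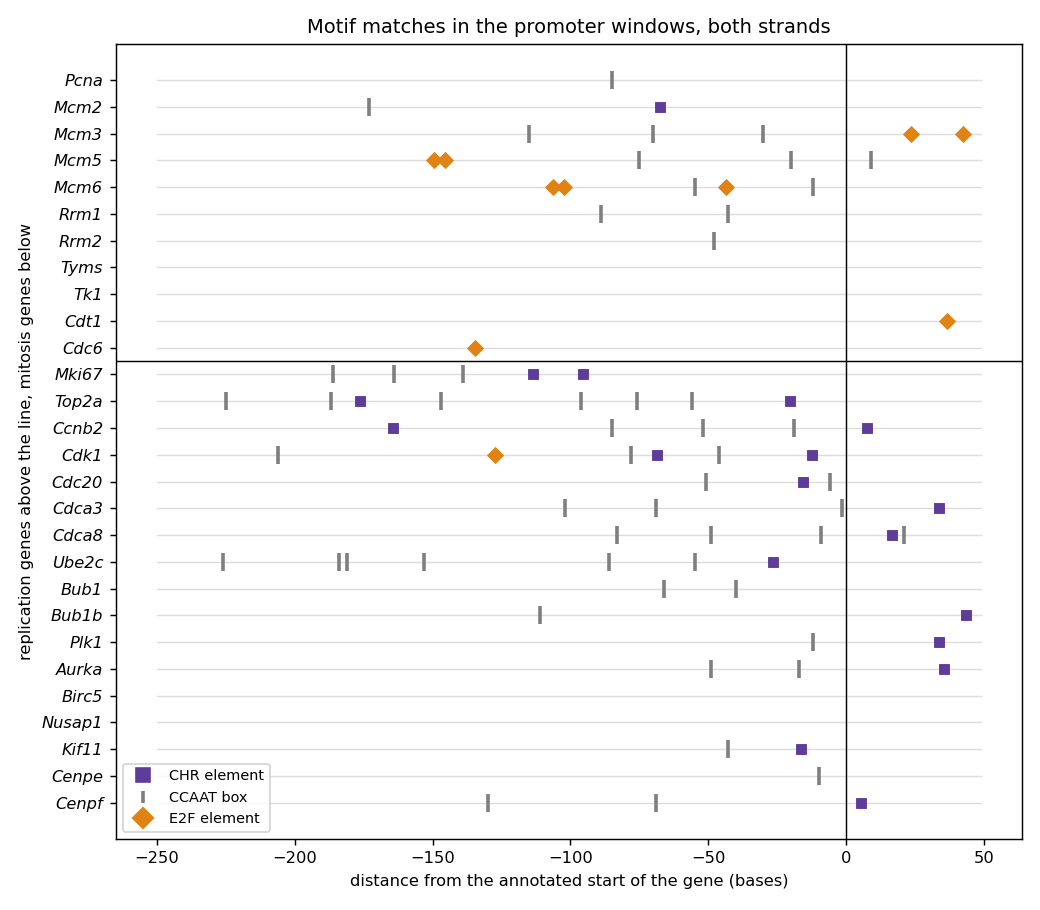
Positions of CHR, CCAAT and E2F matches in bases from the annotated start (x axis), 1 line per gene, replication genes above and mitosis genes below. CHR matches appear in 13 of the 17 mitosis promoters and 1 of the 11 replication promoters, and E2F words in 5 replication promoters and 1 mitosis promoter.

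All levels below are log2 signals as deposited, so 1 unit is a doubling, and levels of different genes are not compared with each other. The mean of the negative control probe sets, used as background, was 5.07 to 6.15 by array, and 95% of these probe sets lay below 8.44 to 10.28. Differences come from a linear model (limma) over all 48 arrays, are given ± SE with n = 3 arrays a group, and passed where the p-value, adjusted over all genes, was under 0.05. Where every array of a group lay below background, the change is given as at least so many fold against that background. The median of all genes moved by more than 0.1 in some comparisons, and that shift is then given. Values called relative to all genes have it taken off, and the others are as measured. The third monocytic MCSF 3-day array stands apart from its group, as do the first Kupffer MCSF 1-day and the second Kupffer HGF 1-day array in the distances between replicates (root mean square difference 0.318 to 1.17 over all pairs). In bulk RNA, fewer cells of a type and less RNA per cell cannot be told apart. No core macrophage marker lay below background in any group, but Clec4f, the defining Kupffer marker, lay below background in all 16 groups. Vsig4, another Kupffer marker, was at 3.41 to 11.40 in the Kupffer groups and 6.33 to 14.76 in the monocytic ones. The monocyte marker Ly6c2 was at 11.35 to 17.53 in the Kupffer groups and 6.22 to 10.90 in the monocytic ones. Cd5l, Timd4 and Marco, also Kupffer markers, and Ccr2, of monocytes, went either way by group. Cd5l was at 11.07 to 14.32 in Kupffer and 3.62 to 4.03 in monocytic MCSF at 1 day. In MCSF at 3 days it was at 7.62 to 8.47 and 8.60 to 11.52. There Timd4 was at 9.08 or more and 8.84 or less. With Ito cells at 3 days Timd4 was at 5.46 to 5.63 and 6.27 to 6.41. Ccr2 there was at 11.67 to 12.18 and 8.09 to 8.69. In MCSF at 1 day Ccr2 was at 6.69 to 9.48 and 9.51 to 10.23, and Marco at 9.85 to 10.94 and 8.14 to 8.58. With CD146 cells at 1 day Marco was at 8.36 to 8.58 and 9.67 to 9.83. The cell type names below are therefore those of the labels.

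Averaged over the 22 mitosis genes, the arrays fell into a low and a high set at 3 days. In Kupffer cells the mean level was 6.08, 5.87 and 5.76 in the 3 MCSF arrays at 3 days, against 11.65, 11.36 and 11.64 with HGF, 11.18, 10.98 and 10.87 with Ito cells, and 11.92, 11.80 and 11.72 with CD146 cells. In monocytic macrophages it was 9.77, 9.68 and 9.85 with HGF and 10.26, 10.57 and 10.52 with Ito cells, but 5.89, 5.82 and 6.06 with CD146 cells. The monocytic MCSF arrays at 3 days read 5.81, 6.06 and 11.02. At 1 day the Kupffer groups lay in between, at 6.66 to 9.04, and the monocytic groups were low, at 4.37 to 5.26. The highest 1-day values were those of Kupffer cells with CD146 cells, at 8.85 to 9.04, where the MCSF controls were at 8.33, 7.69 and 7.13.

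The 13 replication genes also had a low and a high set at 3 days, with a narrower range. Their mean in Kupffer cells at 3 days was 7.37, 7.48 and 7.49 with MCSF, 11.84, 11.39 and 11.75 with HGF, 11.52, 11.34 and 11.30 with Ito cells, and 11.85, 11.86 and 11.74 with CD146 cells. In monocytic macrophages at 3 days it was 7.28, 7.56 and 10.71 with MCSF, 10.20, 9.88 and 10.54 with HGF, 10.72, 11.09 and 10.77 with Ito cells, and 7.33, 7.35 and 7.56 with CD146 cells. At 1 day their order differed from that of the mitosis genes: monocytic CD146 arrays (8.21 to 8.31) lay above Kupffer Ito arrays (8.12 to 8.17), and monocytic MCSF arrays (7.70 to 7.94) above the Kupffer MCSF arrays of 3 days. In the low groups many mitosis genes were not above background: of the 22, 10 lay below it on all 3 arrays in Kupffer MCSF at 3 days, 12 in monocytic CD146 at 3 days and 15 to 17 in the monocytic 1-day groups. Of the 13 replication genes, 0 to 4 lay below background in any group. In 3-day groups with high means, none of the 22 mitosis genes lay below background on all arrays.

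**Figure D2:**
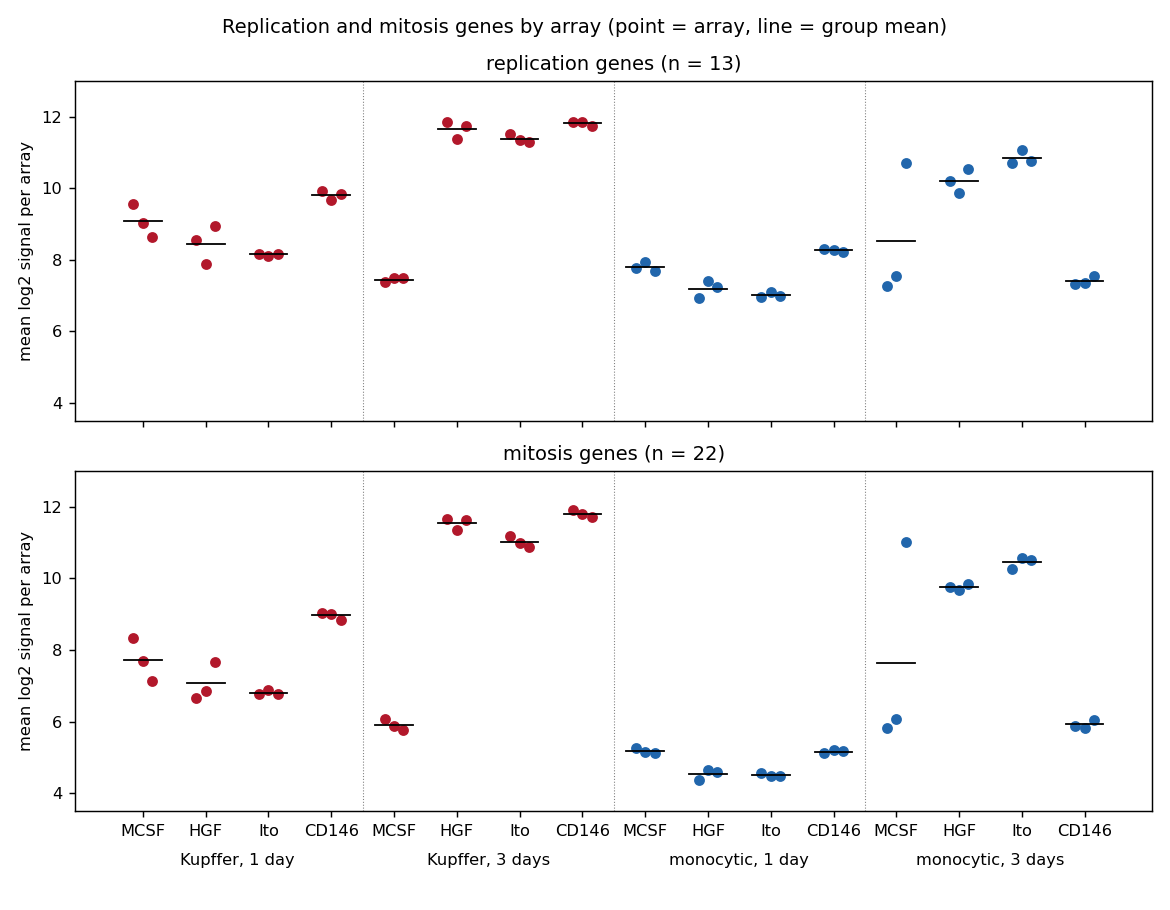
Mean log2 signal of the 13 replication and the 22 mitosis genes (y axis) for each array in the 16 groups (x axis); points are arrays and lines group means. At 3 days the Kupffer groups with an addition (mitosis 10.87 to 11.92) lie far above Kupffer MCSF (5.76 to 6.08), and 1 monocytic MCSF array, at 11.02, lies apart from the other arrays of its group.

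**Figure D3:**
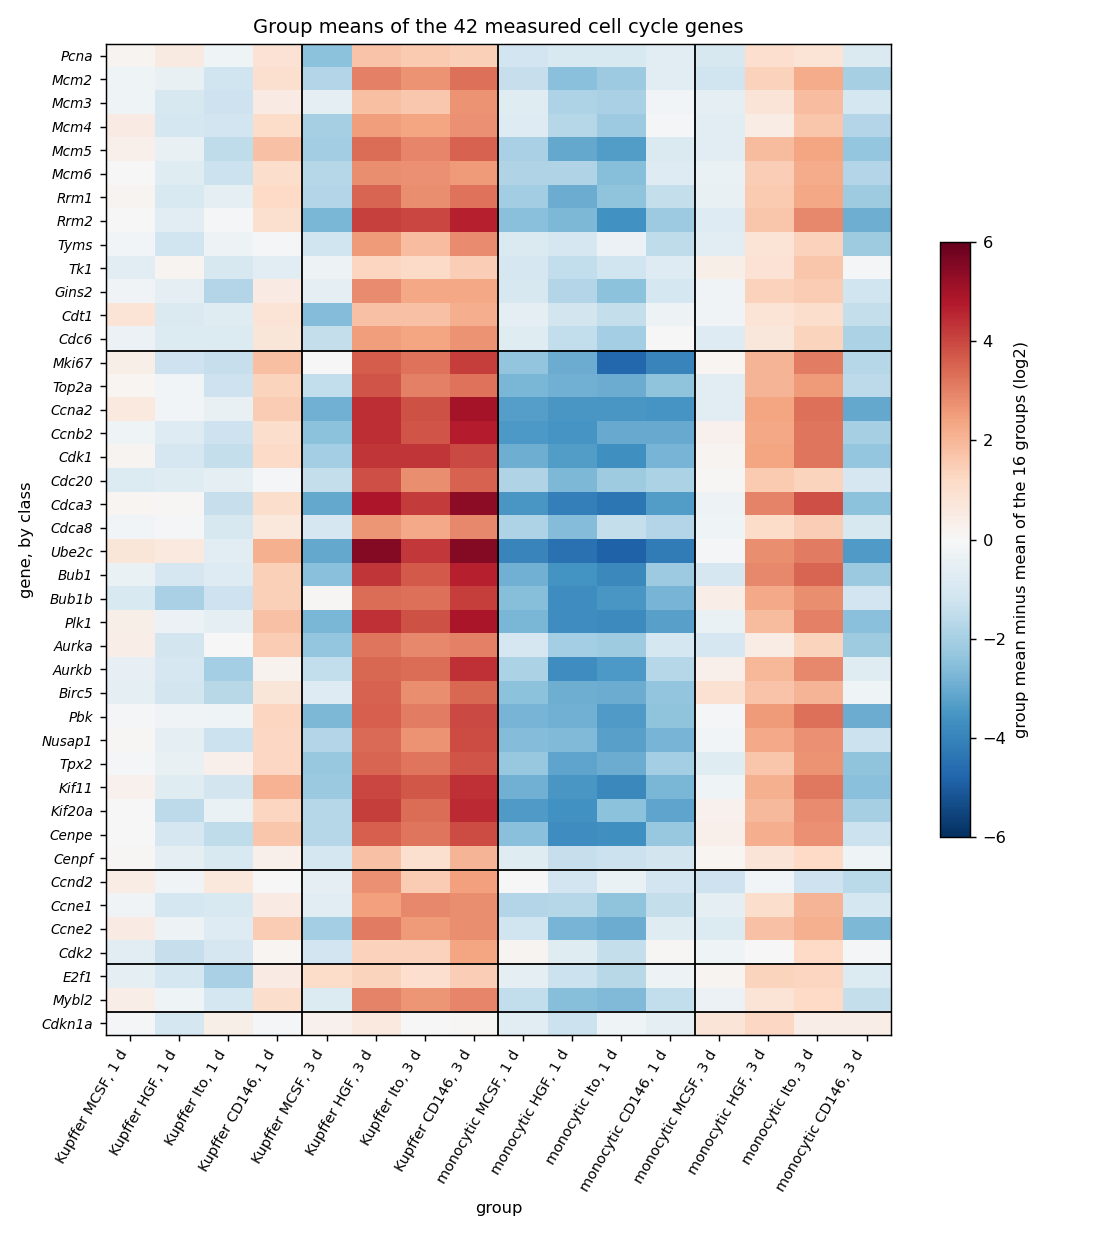
Group mean of each of the 42 genes minus its mean over the 16 groups, in log2 (colour), with groups as columns and genes as rows by class. Most genes share a pattern that is high in the 3-day groups with an addition, except monocytic with CD146 cells; Ccnd2, Cdk2, E2f1 and Cdkn1a show other patterns.

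The third monocytic MCSF array at 3 days was higher than both others of its group for 41 of the 42 genes, by a median of 3.76 over the higher of them (5.14 for mitosis and 3.26 for replication genes). The exception was Ccnd2, at 6.55, 6.44 and 6.42. The share of all genes higher on this array than on both others was not counted. Ube2c, the ubiquitin-conjugating enzyme of the mitotic ligase, read 5.77, 5.73 and 12.35, and Rrm2, the regulated subunit of ribonucleotide reductase, 6.03, 6.73 and 11.92. Over all genes, this array correlated at 0.9876 with the mean of monocytic Ito at 3 days and 0.9856 with that of monocytic HGF at 3 days. With the other 2 arrays of its own group it correlated at 0.979. These values were 0.9876, 0.9857 and 0.9806 with the 42 genes left out, while other genes of the cycle stayed in. The macrophage scavenger receptor Marco also differed on this array (9.54, 10.32 and 15.30), as did Cd5l (10.96, 11.52 and 8.60). At 3 days Marco was at 6.91 to 8.65 in monocytic Ito, 8.98 to 10.02 in monocytic HGF and 15.49 to 16.24 in Kupffer MCSF. Cd5l was there at 12.47 to 13.47, 12.02 to 12.85 and 7.62 to 8.47, in that order. Over all genes, the array correlated at 0.967 with the mean of Kupffer MCSF at 3 days. It is used under its label. For results that rest on it, counts are given with and without it, and so are some of the medians and the values of several leading genes. It also widened the spread shared by all groups: the median SE of a difference was 0.52 over the 42 genes with it and 0.31 without, while over all genes it was 0.280 and 0.277.

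Replication and mitosis genes were higher at 3 days in Kupffer cells cultured with HGF, Ito cells or CD146 cells than in those kept in MCSF. In each of the 3 comparisons with the MCSF control, 40 of the 42 genes were higher and none was lower. Over all genes, 14.5% were higher with HGF, 14.5% with Ito cells and 14.0% with CD146 cells. The median difference over the 42 genes was 4.85, 4.44 (4.32 relative to all genes) and 4.79, respectively. All 13 replication genes (medians 4.37, 4.33 and 4.27) and all 22 mitosis genes (medians 5.63, 5.12 and 5.93) were among those that rose. E2f1 and Cdkn1a were the 2 that did not pass. The 3 comparisons share the same 3 control arrays.

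Among the replication genes, Pcna, the polymerase clamp, was at 13.59, 13.65 and 13.44 in MCSF and at 17.78, 17.58 and 17.79 with HGF. All HGF arrays lay above all MCSF arrays, a difference of 4.15 ± 0.31 or 17.8-fold (adjusted p = 2.9e-14). With Ito cells Pcna read 17.54, 17.79 and 17.50, and with CD146 cells 17.64, 17.31 and 17.45, so the 3 additions overlapped each other (4.05 ± 0.31 and 3.90 ± 0.31 above MCSF). Rrm2 was at 6.64, 6.11 and 6.08 in MCSF and at 13.05, 12.81 and 13.46 with HGF, a difference of 6.83 ± 0.69 or 114-fold (adjusted p = 1.1e-10), the largest among the replication genes. Its partner Rrm1, the catalytic subunit, rose 38.0-fold (5.25 ± 0.58). Within the MCM helicase, Mcm5 rose 42.9-fold with HGF (5.64, 6.42 and 6.11 to 11.71, 10.99 and 11.74), Mcm2 27.1-fold, Mcm4 22.4-fold, Mcm6 22.3-fold and Mcm3 5.25-fold. Mcm3 had the smallest of these rises, and Pcna, Mcm4 and Cdc6 had the smallest adjusted p of the class with each addition. The rises of Mcm4 were 4.49 ± 0.41, 4.33 ± 0.41 and 4.72 ± 0.41 with HGF, Ito cells and CD146 cells.

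The factors that load the helicase rose as well. Cdc6 lay below background in MCSF (4.61, 4.72 and 4.97) and was at 8.82, 8.34 and 8.95 with HGF, at least 7.74-fold higher (3.93 ± 0.36, adjusted p = 7.8e-12). Cdt1 was at 6.58, 6.35 and 6.18 in MCSF and at 10.77, 10.71 and 10.75 with HGF (4.37 ± 0.43). Gins2, a subunit of the active helicase, differed by 3.40 ± 0.48 and Tyms by 3.73 ± 0.49. Tk1, of the thymidine salvage route, had the smallest rise of the class: it was below background in MCSF at 5.46, 5.37 and 5.57 and at 7.16, 6.98 and 7.06 with HGF, at least 2.49-fold higher (1.60 ± 0.39, adjusted p = 0.0012).

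The largest differences were among the mitosis genes. Ube2c was below background in MCSF (4.43, 4.87 and 5.48) and at 13.69, 13.31 and 13.54 with HGF, at 12.39, 12.30 and 12.06 with Ito cells and at 13.78, 13.38 and 13.40 with CD146 cells. It was at least 218-fold, 90.6-fold and 218-fold higher, in that order (8.59 ± 0.76, 7.32 ± 0.76 and 8.59 ± 0.76). Plk1, a kinase of mitotic entry and the spindle, was at 6.14, 6.61 and 6.54 in MCSF and at 13.29, 13.67 and 13.74 with HGF, 141-fold higher (7.14 ± 0.76, adjusted p = 4.5e-10). Ccnb2, cyclin B2, rose 118-fold with HGF. Ccna2, cyclin A2, rose at least 125-fold and its kinase Cdk1 at least 33.9-fold with HGF. Cdc20, which activates the ubiquitin ligase of mitotic exit, was below background in MCSF (3.75, 3.36 and 3.40) and at 8.89, 8.99 and 8.51 with HGF, with the smallest adjusted p of the class (5.30 ± 0.42, adjusted p = 1.8e-13, at least 8.29-fold). It also had the smallest with Ito cells (4.22 ± 0.42) and CD146 cells (4.98 ± 0.42).

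Spindle and kinetochore genes covered a wide range. Kif11, the motor that separates spindle poles, rose 74.4-fold with HGF (6.77, 5.56 and 5.45 to 12.46, 11.53 and 12.44), and Cenpe, a kinetochore motor, 39.4-fold. Aurka, Aurora kinase A, was below background on every MCSF array and at 9.85, 10.47 and 10.07 with HGF, at least 20.8-fold higher (5.53 ± 0.52). Top2a, the topoisomerase that untangles sister DNA, rose 37.8-fold, and Cdca3, a mitotic entry factor, at least 103-fold with HGF and 146-fold with CD146 cells. Mki67, the gene of the proliferation antigen Ki-67, rose 12.5-fold. It was already at 12.36, 12.20 and 11.95 in MCSF and went to 15.98, 15.44 and 16.02. Cenpf lay close to background even with HGF (6.52, 5.86 and 6.83), and its rise is at least 1.58-fold.

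**Figure D4:**
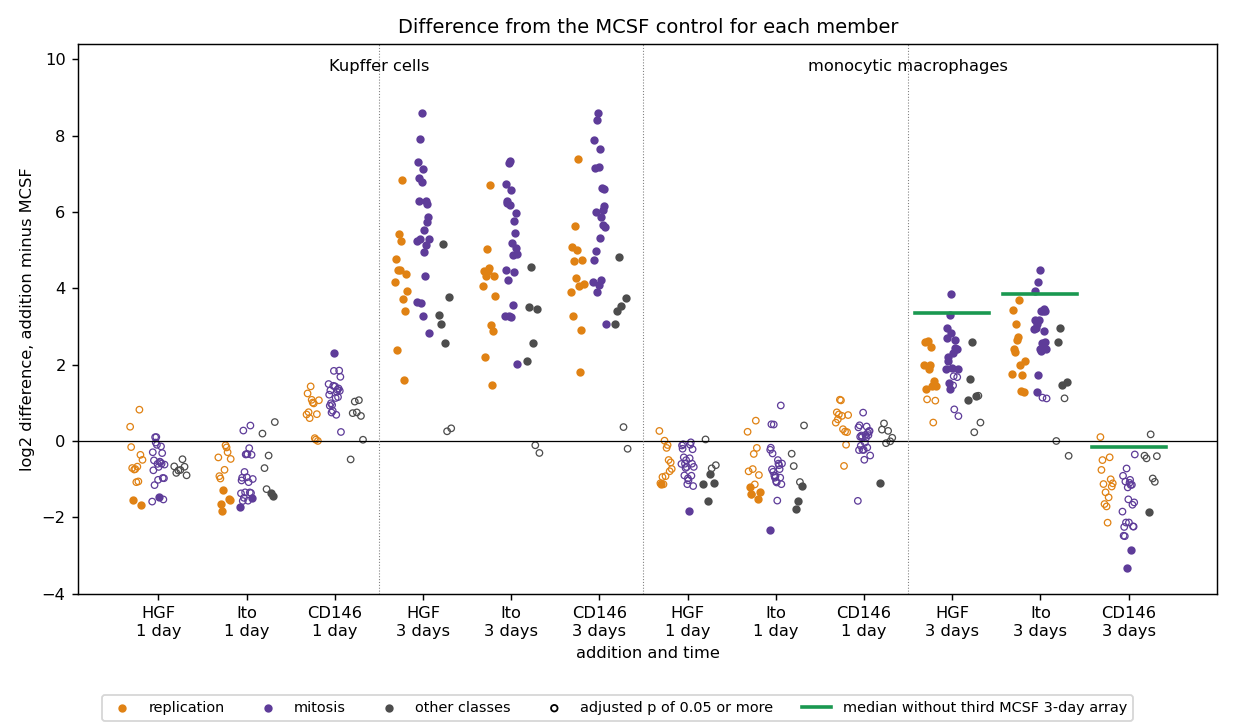
Log2 difference from the MCSF control for each of the 42 genes (points, coloured by class, open where the adjusted p is 0.05 or more) for each addition, time and cell type. The 3 Kupffer 3-day comparisons have medians of 4.85, 4.44 and 4.79; the green line gives the monocytic 3-day median without the third MCSF array.

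Markers of other liver cells moved with these Kupffer differences. The mean level of 6 cholangiocyte markers was 3.28 to 3.49 in Kupffer MCSF at 3 days, with all 6 below background, and 7.91 to 8.88 with HGF, 6.04 to 6.79 with Ito cells and 6.97 to 7.42 with CD146 cells, with 1, 3 and 2 of the 6 below background. Krt7, a bile duct keratin, read 4.12, 4.07 and 3.54 in MCSF and 14.72, 13.84 and 14.80 with HGF. The mean of 10 hepatocyte markers was 3.69 to 4.11 in MCSF (all 10 below background), 6.23 to 7.20 with HGF, 5.92 to 6.19 with Ito cells and 4.74 to 4.96 with CD146 cells (3, 5 and 7 below). The mean of 15 sinusoidal endothelial markers was 4.44 to 4.53 in MCSF (13 below), 6.07 to 7.02 with HGF, 5.57 to 5.81 with Ito cells and 5.29 to 5.48 with CD146 cells (6, 9 and 8 below). The mean of 13 stellate markers was 6.42 to 6.85 in MCSF, 6.57 to 7.36 with HGF, 5.90 to 6.09 with Ito cells and 6.69 to 6.98 with CD146 cells. In the other direction, the mean of 13 core macrophage markers was 16.34 to 16.64 in MCSF and 14.16 to 14.52, 14.57 to 14.69 and 14.25 to 14.32 with the additions. Adgre1, which encodes the sorting antigen F4/80, read 17.60, 17.36 and 16.71 in MCSF and 13.81, 12.81 and 13.22 with HGF (3.94 ± 0.30 lower). The part of other cell types in the rise of the cell cycle genes was not tested.

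In monocytic macrophages at 3 days the replication and mitosis genes were higher with HGF and with Ito cells, and the result depends on the array that stands apart. With all arrays, 31 of 42 genes were higher with HGF (7.56% of all genes were) and 37 of 42 with Ito cells (5.80% of all genes), none lower in either. The medians were 1.88 and 2.58, and only 3 and 10 of the genes that passed had no overlap between groups. The share of all genes without overlap was not counted. Without the third MCSF array, 40 of 42 were higher in both (9.46% and 7.59% of all genes), with medians of 3.34 and 3.86 (replication 2.72 and 3.21, mitosis 4.02 and 4.87). That array stands apart by high values of these same genes, so leaving it out raises the differences by construction. Few genes passed when the compared arrays were fitted alone, as given under processing. When the first MCSF array was left out in its place, 5 and 20 genes passed, and without the second 5 and 22. Without the third HGF array, 16 passed for HGF.

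Pcna was at 16.93, 16.76 and 17.45 with HGF and 14.32, 14.34 and 16.53 in MCSF, without overlap (1.99 ± 0.31, adjusted p = 1.1e-05; 2.72 ± 0.23 without the third MCSF array). Mcm5 was at 10.12, 9.32 and 10.71 with HGF and 10.64, 10.58 and 10.28 with Ito cells, against 6.09, 5.90 and 10.34 in MCSF. Both groups overlapped the MCSF group through the third MCSF array (2.61 ± 0.58 and 3.05 ± 0.58; 4.05 ± 0.40 and 4.50 ± 0.40 without it). Mcm2 differed by 2.60 ± 0.52 and 3.44 ± 0.52 (3.96 ± 0.33 and 4.81 ± 0.33 without the third array), and Mcm4 and Cdc6 by 2.33 ± 0.41 and 2.10 ± 0.36 with Ito cells (3.21 ± 0.33 and 2.76 ± 0.33 without it). Bub1, the spindle checkpoint kinase, read 10.15, 9.78 and 9.85 with HGF, 10.49, 10.41 and 10.72 with Ito cells and 4.22, 3.74 and 10.23 in MCSF. It had the smallest adjusted p of the mitosis class with both additions (3.86 ± 0.73 and 4.48 ± 0.73; 5.94 ± 0.34 and 6.56 ± 0.34 without the third array). Cdca3 differed by 3.29 ± 0.77 and 4.16 ± 0.77, Top2a by 2.69 ± 0.65 and 3.17 ± 0.65, and Tpx2, a spindle assembly factor, by 2.42 ± 0.65 and 3.46 ± 0.65. Without the third array these were larger: 5.52 ± 0.34 and 6.39 ± 0.34 for Cdca3, 4.38 ± 0.41 and 4.85 ± 0.41 for Top2a, and 4.20 ± 0.36 and 5.25 ± 0.36 for Tpx2.

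In monocytic macrophages with CD146 cells no such rise was measured. With all arrays 3 of 42 genes were lower at 3 days, Ube2c, Pbk and Ccne2 (1.18% of all genes were lower), and none was higher. Ube2c was below background with CD146 cells at 4.30, 4.58 and 4.98, under all 3 MCSF arrays, at least 3.80-fold lower (fell by 3.33 ± 0.76, adjusted p = 0.0084). Pbk, a mitotic kinase, was at 4.93, 4.87 and 4.56 against 5.74, 5.81 and 11.42 in MCSF. Without the third MCSF array none of the 3 passed (Ube2c -1.13 ± 0.35, adjusted p = 0.076), the median of the 42 was -0.16, and 1 gene was higher (1.25% of all genes), Pcna (15.18, 15.08 and 15.22 against 14.32 and 14.34; 0.84 ± 0.23, adjusted p = 0.035). Without the first or the second MCSF array, 22 and 19 genes passed, all lower, and without the third CD146 array 1 passed.

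In these monocytic groups, markers of the other liver cells were mostly below background. Of the endothelial markers 12 of 15 lay below it with HGF and with Ito cells, as in MCSF, and their means were 4.63 to 4.75, 4.57 to 4.60 and 4.56 to 4.75. All 6 cholangiocyte markers lay below background in all 3 groups. Of the 10 hepatocyte markers 10 lay below with HGF and MCSF and 9 with Ito cells. Of the 13 stellate markers 9 lay below with HGF and with Ito cells, among them Des, Lrat and Col1a1, with means of 4.54 to 4.58 and 4.65 to 4.80, against 5.84 to 6.77 in MCSF (7 below) and 4.99 to 5.29 with CD146 cells (8 below).

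The difference between the cell types in their response to each addition, Kupffer response minus monocytic response, was tested itself. For CD146 cells at 3 days it was positive for 40 of 42 genes (9.64% of all genes), with a median of 5.97, and Ube2c had 11.92 ± 1.08 (adjusted p = 2.4e-11). Cdc20 and Pbk followed in the mitosis class (6.04 ± 0.59 and 9.51 ± 0.95), and Cdc6, Mcm4 and Rrm2 led the replication class (5.23 ± 0.50, 5.85 ± 0.57 and 9.52 ± 0.97). Without the third monocytic MCSF array it was 40 of 42 (8.47% of all genes) with a median of 4.87, Ube2c at 9.72 ± 0.47, Cdc6 at 4.56 ± 0.44 and Mcm4 at 4.97 ± 0.44. For HGF it was positive for 32 of 42 (7.58% of all genes), with a median of 2.76, led by Cdc20, Aurka and Ube2c (3.77 ± 0.59, 4.07 ± 0.73 and 5.76 ± 1.08) and by Mcm4, Cdt1 and Pcna (3.40 ± 0.57, 3.31 ± 0.61 and 2.17 ± 0.43). Without that array, 27 were positive (6.70% of all genes) with a median of 1.63, Cdc20 was at 2.66 ± 0.34 and Mcm4 at 2.52 ± 0.44, and 1, E2f1, was negative (-1.67 ± 0.48, adjusted p = 0.013). For Ito cells 14 of 42 were positive (4.58% of all genes), with a median of 1.93, led by Pcna at 2.28 ± 0.43, Cdt1 at 3.04 ± 0.61 and Mcm4 at 2.00 ± 0.57 and by Cdc20 at 2.94 ± 0.59, Aurka at 2.83 ± 0.73 and Ube2c at 4.16 ± 1.08. Without that array, 6 were positive (4.38% of all genes) with a median of 0.59, Pcna was at 1.55 ± 0.31, Cdt1 at 2.30 ± 0.55 and Cdc20 at 1.83 ± 0.34, Mcm4 did not pass (1.12 ± 0.44), and E2f1 was negative (-1.98 ± 0.48, adjusted p = 0.0039). Without the first or second monocytic MCSF array the Ito count was 29 and 24. It was 7 without the third Kupffer MCSF array, 9 without the third Kupffer Ito array and 8 without the first monocytic Ito array. At 1 day no gene passed in limma for HGF (20.9% of all genes did so as higher), Ito cells (1.85%) or CD146 cells (0.164%). An unadjusted p under 0.05 was found for 1, 2 and 2 of the 42, against 6957, 3504 and 1268 of all 19505 genes.

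At 1 day few of the genes passed with all arrays in the fit. In Kupffer cells with HGF or Ito cells their share was then near or under that of all genes. The third monocytic MCSF 3-day array, in none of these groups, widened the spread of these genes more than that of all genes (median SE 0.52 with it and 0.31 without, against 0.280 and 0.277). More of them passed with it out of the shared spread, as given below. There 3 of 42 were lower with HGF (13.4% of all genes) and 9 with Ito cells (18.0%), and the medians relative to all genes were -0.51 and -0.73. The median of all genes itself moved by -0.17 and -0.24, and single-gene values in this paragraph are as measured. Quantile normalization left 3 of 42 for Ito cells (Mcm4, Cdt1 and Mki67) and median centring 1 (Mcm4). The replication licensing gene Cdt1 was at 9.97, 9.72 and 9.60 in MCSF, at 9.10, 6.27 and 8.92 with HGF and at 7.89, 8.41 and 8.36 with Ito cells. All of its HGF and Ito arrays lay below the MCSF arrays (-1.67 ± 0.43 and -1.55 ± 0.43), but 1 HGF array, the second, lay far below the other 2. Mcm4 behaved alike (10.09, 8.97 and 8.82 in MCSF, 8.29, 6.70 and 8.28 with HGF, 7.42, 7.67 and 7.79 with Ito cells). Aurka passed with HGF (-1.47 ± 0.52). With Ito cells Mcm5, Mcm6, Gins2 (-1.51 ± 0.48), Cenpe (-1.50 ± 0.55), Mki67 (-1.72 ± 0.63), E2f1 and Mybl2 also fell. Without the second HGF array no gene passed for HGF, without the third HGF array 7 did, and without the third MCSF array 5 did. For Ito cells 5 passed without the first MCSF array and 4 without the second or the third Ito array.

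With CD146 cells in Kupffer cells at 1 day the median was 1.02, but only Bub1b passed, as higher (1.32% of all genes were higher). Bub1b was at 9.71, 9.94 and 9.30 with CD146 cells and at 8.20, 6.86 and 6.95 in MCSF, without overlap (2.31 ± 0.56, adjusted p = 0.0099). At an unadjusted p under 0.05 there were 16 of 42 genes, against 2597 of all 19505. Without the first MCSF array 4 passed, and without the second MCSF or the second CD146 array none did. When the third monocytic MCSF 3-day array was kept out of the shared spread, an alternative chosen after seeing the data, 20 of 42 were higher with CD146 cells, 24 were lower with Ito cells and 10 lower with HGF. The share of all genes that passed in that fit was not counted. Markers differed among the MCSF controls here: the endothelial mean was 10.09, 8.64 and 7.48, the hepatocyte mean 8.09, 6.96 and 6.09, and the B cell mean 4.21, 9.38 and 10.24, and with CD146 cells the endothelial mean was 6.04 to 6.10. Their part in the 1-day differences was not tested.

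Monocytic macrophages at 1 day were near background for most mitosis genes, and 6 of 42 genes were lower with HGF (37.2% of all genes), 8 with Ito cells (13.6%) and 1 with CD146 cells (1.33%). For HGF that share is under the share of all genes in this fit, where the third monocytic MCSF 3-day array widened the spread of these genes. More passed for each addition with that array out of the shared spread, as given under processing. The median of all genes moved by -0.55 with HGF and -0.28 with Ito cells, and the medians of the 42 relative to it were -0.13 and -0.52. Quantile normalization and median centring left none of the 42 for HGF, and 2 (Cdc6 and Cdk2) and 3 (Mki67, Ccne2 and Cdk2) for Ito cells. Ccnd2, cyclin D2, was the gene lower with CD146 cells (7.73, 7.79 and 7.44 in MCSF, 6.37, 6.45 and 6.80 with CD146 cells; -1.11 ± 0.31, adjusted p = 0.042), and it was also lower with HGF (6.50, 6.65 and 6.45; -1.12 ± 0.31, -0.57 relative to all genes). Cdk2 was at 11.75, 11.27 and 11.55 in MCSF and 10.04, 10.01 and 9.78 with Ito cells (-1.58 ± 0.34, -1.30 relative to all genes, adjusted p = 0.0016). Mki67 was at 9.87, 9.92 and 9.65 in MCSF and 7.49, 7.72 and 7.24 with Ito cells, without overlap (-2.33 ± 0.63, -2.05 relative to all genes). All of these lay above the background mean. The Ito values lay under the level below which 95% of the negative control probe sets fell on those arrays (8.86, 8.76 and 8.59). Mcm3 was lower with HGF (-1.13 ± 0.42, -0.58 relative to all genes) and Ito cells (-1.21 ± 0.42, -0.93 relative), and Aurkb, Aurora kinase B, with HGF (-1.83 ± 0.64, -1.28 relative). Relative to all genes Cdc6, Mcm4 and Gins2 were at -1.05 ± 0.36, -1.11 ± 0.41 and -1.24 ± 0.48 with Ito cells. For HGF 2 to 4 genes and for Ito cells 4 to 6 passed with any 1 array left out, and none for CD146 cells.

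Between the cell types, many of these genes were higher in Kupffer cells at 1 day in every condition. In MCSF 29 of 42 were higher than in monocytic macrophages (9.73% of all genes), in HGF 31 (39.7%), with Ito cells 17 (2.23%) and with CD146 cells 35 (6.28%), and none was lower. Of the 22 mitosis genes 19, 20, 13 and 22 passed, in that order, with medians of 2.70, 2.62, 2.19 and 3.94. Of the 13 replication genes 7, 8, 2 and 9 passed, with medians of 1.27, 1.15, 0.99 and 1.52. With HGF the median of all genes was itself 0.40 higher in Kupffer cells, and relative to it the medians were 2.21 and 0.75. Median centring left 22 genes higher with HGF and 1, Cdk2, lower. Ube2c read 8.71, 9.28 and 8.13 in Kupffer MCSF and 4.11, 4.07 and 3.95, below background, in monocytic MCSF, at least 7.47-fold higher. Ccna2 and Ccnb2 followed in the mitosis class (at least 8.42-fold and 6.43-fold), and Pcna, Mcm6 and Mcm5 led the replication class (1.34 ± 0.31, 1.81 ± 0.46 and 2.25 ± 0.58). With HGF, Pcna (1.05 ± 0.31 relative to all genes), Mcm5 (at least 5.48-fold) and Tk1 (at least 1.63-fold) led the replication class, and Ube2c (at least 10.3-fold), Cdca8 (at least 2.44-fold) and Cdca3 (at least 5.26-fold) the mitosis class. With Ito cells the replication genes that passed were Rrm2 (3.52 ± 0.69) and Cdc6 (1.25 ± 0.36), and Ube2c (at least 4.54-fold), Mki67 (3.32 ± 0.63) and Tpx2 (at least 7.07-fold) led the mitosis class. With CD146 cells the leading genes were Pcna (1.55 ± 0.31), Rrm2 (3.17 ± 0.69) and Mcm5 (2.60 ± 0.58), and Ube2c (at least 19.0-fold) and Bub1b (at least 13.4-fold) beside Mki67. Mki67 was at 13.89, 14.24 and 13.93 in Kupffer cells and 8.16, 8.22 and 8.35 in monocytic macrophages with CD146 cells, a difference of 5.78 ± 0.63 (adjusted p = 1.6e-08). In MCSF at 1 day 18 genes passed without the first Kupffer array. With Ito cells the 17 became 10 to 12 without any 1 of the 6 arrays.

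Markers of other cells also differed between the cell types at 1 day. The endothelial mean in Kupffer cells was 7.48 to 10.09 in MCSF and 7.77 to 8.67 with HGF (2 of 15 below background in each), 5.76 to 5.94 with Ito cells (9 below) and 6.04 to 6.10 with CD146 cells (7 below), against 3.84 to 4.55 in the monocytic groups (10 to 12 below). The hepatocyte mean was 6.09 to 8.09, 6.24 to 7.05, 5.72 to 5.82 and 6.34 to 6.61 in the Kupffer groups, in that order, with 2, 1, 5 and 4 of 10 below background, against 3.10 to 3.98 in the monocytic groups (9 or 10 below). The cholangiocyte mean was 5.52 to 7.47, 6.08 to 6.77, 3.93 to 4.24 and 4.73 to 5.18, with 1, 2, 5 and 4 of 6 below, against 2.53 to 3.51 with all 6 below. The neutrophil mean with Ito cells was 10.79 to 10.90 in Kupffer cells and 7.83 to 8.09 in monocytic macrophages. The part of these cells in the differences was not tested.

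At 3 days the order depended on the condition. With CD146 cells 41 of 42 genes were higher in Kupffer cells (13.9% of all genes), with a median of 5.12 (5.23 relative to all genes). The exception was Cdkn1a. Ube2c was at least 180-fold higher, Rrm2 was at 13.41, 13.93 and 13.62 against 5.55, 6.03 and 6.68 (7.57 ± 0.69), and Mcm4 and Cdc6 differed by 4.52 ± 0.41 and 4.57 ± 0.36. Cdc20 was at least 5.51-fold and Pbk at least 51.4-fold higher. With HGF 22 of 42 were higher in Kupffer cells (9.80% of all genes), with a median of 1.61, and 13 without the second monocytic HGF array. Cdc20 (2.29 ± 0.42), Aurka (2.79 ± 0.52) and Cdca8 (1.53 ± 0.41), of the chromosomal passenger complex, led the mitosis class, and Cdc6 (1.85 ± 0.36), Mcm4 (2.07 ± 0.41) and Rrm2 (2.43 ± 0.69) the replication class. With Ito cells 3 were higher, Ccnd2, Cdc20 and Mybl2 (4.86% of all genes), with a median of 0.52. An unadjusted p under 0.05 was found for 6 of the 42, against 3486 of all 19505 genes. Cdc20 was at 7.99, 7.48 and 7.70 against 5.99, 6.14 and 6.68, without overlap. The Ito count was 1 without the first or the third Kupffer Ito array or the first monocytic Ito array.

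In MCSF at 3 days, 13 of 42 genes were lower in Kupffer cells and none higher with all arrays (5.70% of all genes were lower). Of the 13, 7 had no overlap between groups, and the share of all genes without overlap was not counted. Without the third monocytic array 2 were lower, Pcna and Cdt1, and 5 were higher (6.71% of all genes), Mcm3, Mki67, Bub1b, Ccne1 and E2f1. Cdt1 was at 6.58, 6.35 and 6.18 in Kupffer cells and at 8.01, 7.97 and 10.20 in monocytic macrophages (-2.36 ± 0.43; -1.62 ± 0.41 without the third array). Mki67 was at 12.36, 12.20 and 11.95 in Kupffer cells and 10.63, 10.80 and 15.57 in monocytic macrophages, so its direction turns on that array (1.45 ± 0.41 without it). Pcna (-1.50 ± 0.31) and Mcm4 (-1.33 ± 0.41) followed Cdt1 in the replication class. Of the mitosis genes Ccnb2 (-2.71 ± 0.68), Ube2c (-3.02 ± 0.76) and Pbk (-2.59 ± 0.67) had the smallest adjusted p with all arrays, and none of them passed without the third array. In place of 13, the count was 29 without the first monocytic array, 25 without the second and 6 without the third Kupffer array.

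Over time in MCSF alone, expression of these genes fell in Kupffer cells: 26 of 42 genes were lower at 3 days than at 1 day (10.2% of all genes), among them 9 replication and 14 mitosis genes, and E2f1 alone was higher. The median relative to all genes was -1.82, with the median of all genes at 0.15. Values with an SE in this and the next 3 paragraphs are relative to that median, and folds, levels and adjusted p are those of the values as measured. Pcna went from 16.58, 16.05 and 15.96 to 13.59, 13.65 and 13.44 (-2.78 ± 0.31, adjusted p = 6e-09), Cdt1 fell by 3.54 ± 0.43 and Mcm4 by 2.62 ± 0.41, all without overlap. Of the mitosis genes, Aurka, Ube2c and Ccna2 fell below background, at least 2.91-fold, 7.78-fold and 8.77-fold lower. Mki67 was at 13.90, 12.15 and 11.54 and then at 12.36, 12.20 and 11.95, with overlapping groups. The endothelial, hepatocyte and cholangiocyte marker means were 7.48 to 10.09, 6.09 to 8.09 and 5.52 to 7.47 at 1 day, against 4.44 to 4.53, 3.69 to 4.11 and 3.28 to 3.49 at 3 days, and their part in the fall was not tested.

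With an addition the change over time was upward in 5 of 6 cases. In Kupffer cells 42 of 42 genes were higher at 3 days than at 1 day with HGF (34.4% of all genes), 41 with Ito cells (41.8%) and 38 with CD146 cells (18.7%), with medians relative to all genes of 3.56, 3.28 and 2.12. In monocytic macrophages 41 were higher with HGF (56.0% of all genes) and 40 with Ito cells (35.3%), where Ccnd2 was lower, with relative medians of 3.73 and 4.45. The median of all genes moved by 0.30, 0.51, 0.16, 0.71 and 0.44 in these 5 comparisons. Markers of other cells moved over time as well: in Kupffer cells with HGF the cholangiocyte mean went from 6.08 to 6.77 at 1 day to 7.91 to 8.88, the endothelial mean from 7.77 to 8.67 to 6.07 to 7.02, and the core macrophage mean from 14.93 to 15.72 to 14.16 to 14.52. With Ito cells the neutrophil mean went from 10.79 to 10.90 to 8.26 to 9.11, the B cell mean from 7.18 to 7.36 to 4.36 to 4.60 and the cholangiocyte mean from 3.93 to 4.24 to 6.04 to 6.79. With CD146 cells the neutrophil mean went from 9.25 to 9.43 to 6.13 to 6.58 and the stellate mean from 4.68 to 4.81 to 6.69 to 6.98. Their part in the rise of these genes was not tested. In Kupffer cells with HGF the smallest adjusted p values were those of Cdc20 (4.31 ± 0.42), Birc5 (4.35 ± 0.49) and Bub1b (4.97 ± 0.56) among mitosis genes and of Cdc6 (3.03 ± 0.36), Mcm4 (3.26 ± 0.41) and Mcm6 (3.22 ± 0.46) among replication genes. With Ito cells they were those of Birc5 (3.92 ± 0.49), Cenpe (4.21 ± 0.55), Aurkb (4.91 ± 0.64), Cdc6 (2.67 ± 0.36), Mcm6 (3.52 ± 0.46) and Mcm4 (3.01 ± 0.41). With CD146 cells Cdc20 (3.49 ± 0.42), Aurkb (4.02 ± 0.64) and Cdca3 (4.15 ± 0.77) led the mitosis class, and Tyms (2.77 ± 0.49), Cdc6 (1.79 ± 0.36) and Tk1 (at least 3.26-fold) the replication class.

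In monocytic macrophages with HGF, Cenpe (at least 44.4-fold), Bub1b (at least 39.0-fold) and Cdc20 (at least 2.40-fold) led the mitosis class, and Mcm5 (at least 27.9-fold), Rrm1 (3.86 ± 0.58) and Mcm2 (3.18 ± 0.52) the replication class. With Ito cells Mcm6 (4.33 ± 0.46), Mcm5 (at least 39.9-fold) and Rrm2 (6.11 ± 0.69) led the replication class, and Mki67, Cenpe and Bub1b (at least 57.8-fold) the mitosis class. Mki67 in monocytic macrophages with Ito cells went from 7.49, 7.72 and 7.24 to 15.22, 15.24 and 15.33, a rise of 7.34 ± 0.63 (adjusted p = 6.6e-13). Cenpe, from below background at 4.93, 4.93 and 4.73, went to 11.30, 11.14 and 11.35, at least 67.8-fold higher.

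With CD146 cells in monocytic macrophages few genes passed over time in the fit with all arrays. The third monocytic MCSF 3-day array, in neither of these groups, widened the spread of these genes (median SE 0.52 with it and 0.31 without). More passed in both directions in the fits without it, given under processing, so the shares are not read as a result. Birc5 (survivin, of the chromosomal passenger complex), Mki67, Bub1b and the inhibitor Cdkn1a were higher at 3 days, and Cdc6, Mcm4, Cdt1 and Ccne2 (cyclin E2) were lower, 4 in each direction (18.9% of all genes were higher and 8.34% lower). Differences ran from -1.05 to 2.24 among mitosis genes and from -1.84 to 0.69 among replication genes. Birc5 went from 5.11, 5.28 and 5.20, below background, to 7.20, 7.31 and 7.47, and Mcm4 from 8.70, 8.69 and 8.78 to 6.63, 7.14 and 7.30 (-1.88 ± 0.41 relative to all genes). The median was 0.67 for mitosis and -1.09 for replication genes relative to all genes, which moved by 0.18. The count was 5 without the third 1-day or the first 3-day array. In monocytic MCSF 24 genes were higher and 1, Ccnd2, lower at 3 days than at 1 day (19.5% of all genes were higher), with a median of 1.43 relative to all genes, which moved by 0.13. Without the third 3-day array 9 were higher (17.6% of all genes) and 3, Ccnd2, Mcm2 and Aurka, lower. Of those 9, 8 were mitosis genes, Birc5 (2.16 ± 0.34 as measured), Ccnb2 (1.79 ± 0.34 as measured), Ube2c, Kif20a, Bub1b, Cenpe, Cdca3 and Cdc20, and the ninth was Cdkn1a. With all arrays Birc5 (at least 6.39-fold), Ccnb2 (at least 9.14-fold) and Bub1b (2.84 ± 0.56) led the mitosis class, and Tk1 (at least 1.26-fold), Mcm6 (1.27 ± 0.46) and Rrm1 (1.51 ± 0.58) the replication class. Of these 6, the replication genes did not pass without that array.

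Over the 48 arrays, 38 of the 42 genes had a Pearson correlation of at least 0.85 with the mean of the mitosis genes and 4 had less. The correlations were taken over arrays that share groups and 1 apart array. They were 0.92 to 0.99 for the mitosis genes, each left out of the mean it was compared with. They were 0.63 for Ccnd2, 0.76 for Cdk2, 0.77 for E2f1 and 0.48 for Cdkn1a. The range of the group means was widest in Ube2c (10.38), Cdca3 (9.68) and Mki67 (8.84).

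Ccnd2, the D-type cyclin that answers growth signals in G1, was higher in Kupffer than in monocytic macrophages at 3 days with each addition. With Ito cells it was at 9.95, 8.62 and 9.03 in Kupffer cells and at 6.18, 6.95 and 6.27 in monocytic macrophages, without overlap (2.74 ± 0.31, adjusted p = 1.1e-08). With HGF it was at 10.46, 9.77 and 11.02 against 7.87, 7.61 and 7.13 (2.88 ± 0.31), and with CD146 cells at 9.76, 10.43 and 10.33 against 5.89, 6.02 and 6.34 (4.09 ± 0.31). It had the smallest adjusted p of the 42 genes in all 3 of these comparisons. In monocytic macrophages with Ito cells, where 37 of the 42 genes rose over MCSF, it did not pass (-0.00 ± 0.31).

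Cdk2, the kinase partner of cyclins E and A, rose in Kupffer cells with HGF (2.58 ± 0.34), Ito cells (2.57 ± 0.34) and CD146 cells (3.54 ± 0.34) at 3 days. In monocytic macrophages it was at 11.56, 11.40 and 11.04 with HGF and 10.34, 10.94 and 12.05 in MCSF, overlapping (0.23 ± 0.34, adjusted p = 0.75; 0.70 ± 0.35 without the third array), and at 12.53, 12.87 and 12.32 with Ito cells (1.47 ± 0.34, adjusted p = 0.0022; 1.94 ± 0.35 without it). The difference between the cell types in the response to HGF was 2.35 ± 0.48 (adjusted p = 0.00038; 1.88 ± 0.46 without it).

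E2f1, an activator of replication genes, was the only member that rose in Kupffer MCSF over time, from 6.25, 6.11 and 5.80 to 7.11, 7.71 and 8.38 (1.68 ± 0.40, 1.53 relative to all genes, adjusted p = 0.00089). Those 3-day controls overlapped the groups with additions, at 8.37, 7.36 and 8.22 with HGF, 7.90, 7.46 and 7.49 with Ito cells and 7.94, 8.30 and 8.04 with CD146 cells, and the differences were 0.25 ± 0.40, -0.11 ± 0.40 and 0.36 ± 0.40. Mybl2 (B-Myb, which acts with MuvB) was below background in Kupffer MCSF at 4.90, 5.02 and 5.07 and at 9.20, 8.61 and 8.52 with HGF, at least 8.16-fold higher.

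Cdkn1a, which encodes the kinase inhibitor p21, was high in every group, with group means of 13.75 to 16.32. At 3 days it was at 15.48, 15.42 and 15.11 in Kupffer MCSF and at 16.07, 15.30 and 15.65 with HGF, 15.06, 14.82 and 15.20 with Ito cells and 15.26, 15.16 and 14.97 with CD146 cells, and no comparison with MCSF passed in either cell type. Its group mean was highest in monocytic HGF at 3 days (16.08, 16.64 and 16.25), where it was 2.57 ± 0.35 above the 1-day level (1.86 relative to all genes, adjusted p = 1.2e-07). In that group the mitosis genes were also higher than at 1 day (median 4.87 relative to all genes).

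**Figure D5:**
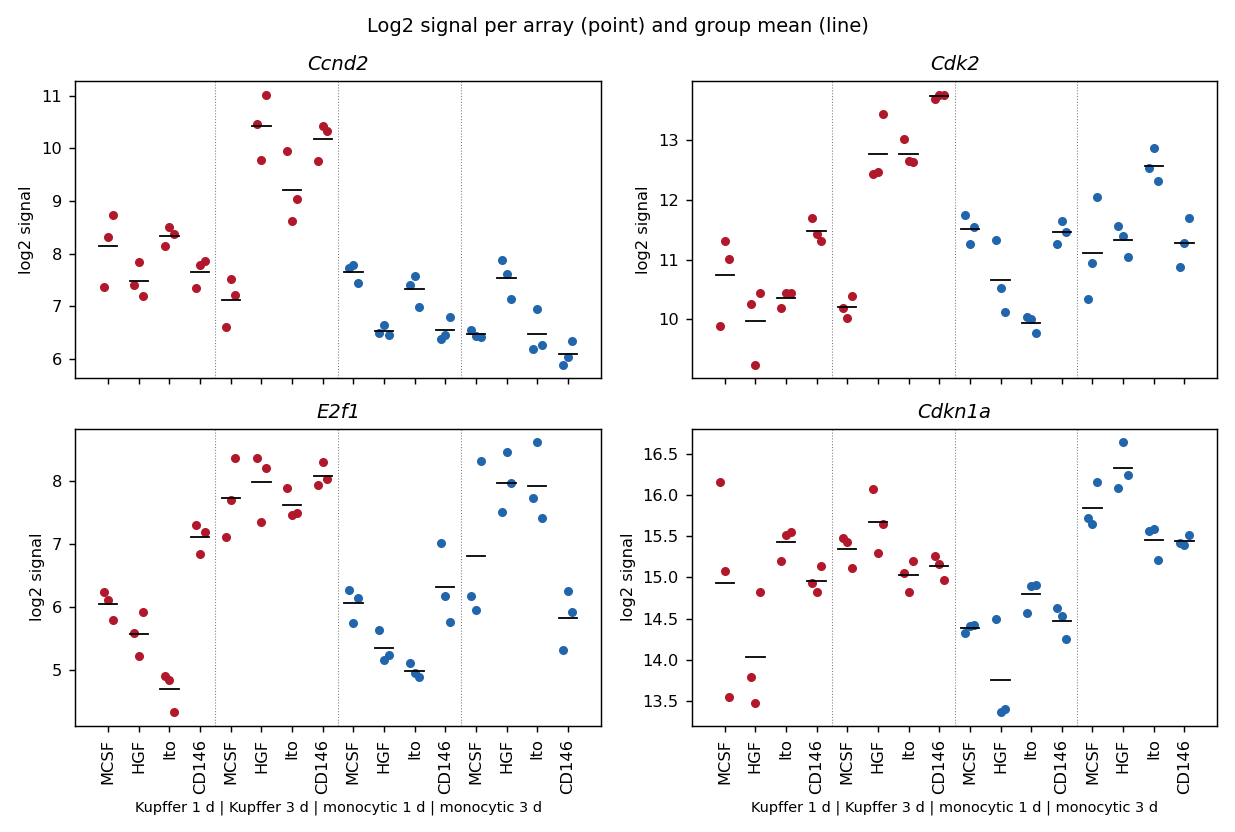
Log2 signal of Ccnd2, Cdk2, E2f1 and Cdkn1a on each array (points) with group means (lines) in the 16 groups. Ccnd2 is higher in Kupffer than in monocytic arrays at 3 days with each addition, E2f1 in Kupffer MCSF at 3 days (7.11 to 8.38) overlaps the groups with additions, and Cdkn1a group means stay between 13.75 and 16.32.

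Other genes of the cycle, from lists made by general knowledge but with earlier results of these data known, moved with the members. Of 27 other replication genes, 27 were higher in Kupffer cells at 3 days with each addition, and 20, 24 and 0 in monocytic macrophages with HGF, Ito cells and CD146 cells (24, 26 and 2 without the third MCSF array). Of 36 other mitosis genes, 35, 35 and 36 were higher in Kupffer cells, and 26 and 31 in monocytic macrophages with HGF and Ito cells (34 and 35 without the third MCSF array), while 4 were lower with CD146 cells. The shares of all genes that were higher were those given above, 14.0% to 14.5% in Kupffer cells and 7.56% and 5.80% in monocytic macrophages. With HGF in Kupffer cells the leading genes were Chaf1b, a histone chaperone subunit (4.36 ± 0.45), Hells, a chromatin remodeller (4.18 ± 0.44), and Mcm10, a replication initiation factor (4.34 ± 0.46). Among the mitosis genes they were Cenpa, the centromeric histone (4.86 ± 0.39), Dlgap5, a spindle protein (6.08 ± 0.55), and Nuf2, a kinetochore subunit (6.42 ± 0.61). The genes lower with CD146 cells in monocytic macrophages were Melk, Cenpa, Mad2l1 and Knl1, of which Melk alone passed without the third MCSF array (-1.16 ± 0.28).

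Of 22 other G1 regulators, 13 were higher and 2 lower in Kupffer cells with each addition, where 13.1%, 12.3% and 12.4% of all genes were lower with HGF, Ito cells and CD146 cells. Myc, a growth-driving transcription factor, rose by 5.57 ± 0.49 with HGF, 6.34 ± 0.49 with Ito cells and 6.04 ± 0.49 with CD146 cells, and in monocytic macrophages by 2.26 ± 0.49 and 3.77 ± 0.49 with HGF and Ito cells (3.23 ± 0.42 and 4.75 ± 0.42 without the third MCSF array). The cyclin D kinases Cdk4 and Cdk6 rose by 2.26 ± 0.20 and 3.68 ± 0.32 in Kupffer cells with HGF. Rb1, the retinoblastoma gene that restrains E2F, fell by 1.61 ± 0.23 in monocytic macrophages with Ito cells (by 1.87 ± 0.24 without the third MCSF array). Of 6 kinase inhibitors, 2 were higher and 2 lower in Kupffer cells with HGF: Cdkn2c (2.76 ± 0.43) and Cdkn2d (2.63 ± 0.51) against Cdkn2b (-1.20 ± 0.26) and Cdkn2a (-0.98 ± 0.29). With Ito cells 3 were higher and 3 lower, and with CD146 cells 2 and 2. With 6 genes these counts are given as values only.

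Of 14 p53 targets, 4 were higher and 3 lower in Kupffer cells with HGF, 2 and 4 with Ito cells, and 3 and 3 with CD146 cells, beside the shares of all genes of 14.0% to 14.5% higher and 12.3% to 13.1% lower. Perp, a membrane protein of epithelia and of cell death, rose by 6.67 ± 0.35 with HGF, and Fas, a death receptor, fell by 3.47 ± 0.35. Of 10 genes of macrophage growth control, 3 were higher and 3 lower in Kupffer cells with HGF and with Ito cells, and 3 and 4 with CD146 cells. Csf1r, the MCSF receptor, fell in Kupffer cells with each addition (-1.81 ± 0.23, -1.70 ± 0.23 and -1.12 ± 0.23) and in monocytic macrophages with HGF (-1.97 ± 0.23) and Ito cells (-1.47 ± 0.23), where it was -2.12 ± 0.26 and -1.62 ± 0.26 without the third MCSF array. Met, the HGF receptor, rose with Ito cells in Kupffer cells by 1.65 ± 0.34. Maf, a factor linked to macrophage quiescence, fell in monocytic macrophages with HGF (-2.45 ± 0.40) and Ito cells (-2.53 ± 0.40), and by the same sign without the third MCSF array (-2.43 ± 0.45 and -2.51 ± 0.45).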

How the data were processed

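RNA of 48 cultures was hybridised as biotinylated cRNA, and the files the authors deposited hold log2 signals for each probe set, made with RMA in Transcriptome Analysis Console per the submitters' processing notes; versions, build and whether arrays were normalised together are not given in the sources used here. Genes were named through the platform annotation, which gave 19505 genes after 6640 control and 2634 unnamed probe sets were left out of 28846; a gene with several probe sets took the one with the highest mean, which no member needed. Groups follow the labels. Limma 3.58.1 in R 4.3.3 fitted 1 mean per group over all arrays with 34 contrasts, and p-values (two-sided) were adjusted by Benjamini-Hochberg over all genes in each contrast. The test was checked on simulated data. Described by name are all members a result turns on, the 3 of each class with the smallest adjusted p, members against their class, and up to 3 genes of each other list. The members and lists were chosen with earlier results of these data known. The number of arrays limits the precision. Promoters are RefSeq's (GRCm38.p6). Alternatives were quantile normalization, median centring, the lowest 25% of genes left out, a replicate block, means of probe sets, another variance model, arrays left out and compared arrays alone.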

Additional observations from a re-analysis of the deposited data

Results flagged for a closer look

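The responses of Kupffer and monocytic macrophages to each addition differed at 3 days by the test of the difference itself (limma, Kupffer response minus monocytic response). For CD146 cells 40 of 42 genes passed, all positive, and 40 did so without the third monocytic MCSF array. For HGF 32 passed, all positive, and without that array 27 were positive and 1, E2f1, was negative. For Ito cells 14 passed, all positive, and without that array 6 were positive and E2f1 was negative. Both responses use their own MCSF arrays as control, and markers of other liver cells moved in the Kupffer groups at 3 days. Their part in these differences was not tested.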

How the results depend on the processing

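Counts here are of the 42 genes that passed, in either direction, and the share of all genes was not counted in these alternative fits. The median of all genes, which moved by up to 0.71, was removed by quantile normalization, which gave 3 for Kupffer with Ito cells, 0 for monocytic with HGF and 2 for monocytic with Ito cells at 1 day, and by median centring, which gave 1, 0 and 3. Leaving out the lowest 25% of genes gave 5 for Kupffer against monocytic with Ito cells at 3 days, and another variance model gave 0 for monocytic with CD146 cells at 1 day. In the fit without the 3 arrays that stand apart, the 1-day additions gave 1, 18 (2 higher and 16 lower) and 32 in Kupffer cells with HGF, Ito cells and CD146 cells and 22, 27 (1 higher, 26 lower) and 5 (3 higher, 2 lower) in monocytic macrophages. That fit gave 32 for Kupffer against monocytic with Ito cells at 1 day, 7 (5 higher, 2 lower) with MCSF, 39 with HGF and 13 with Ito cells at 3 days, 27 (16 higher, 11 lower) for monocytic CD146 over time, and 5, 2 and 11 for the differences between responses at 1 day. Fitting the compared arrays alone gave 0 for Kupffer HGF, 24, 28 and 6 for monocytic HGF, Ito cells and CD146 cells at 1 day, and 1, 1 and 0 for these at 3 days. It gave 32 for Kupffer against monocytic with Ito cells at 1 day, 1, 37 and 13 with MCSF, HGF and Ito cells at 3 days, 3 and 28 for monocytic MCSF and CD146 over time, and 12 and 3 for the responses to HGF and Ito cells at 3 days. With the third monocytic MCSF 3-day array left out of the shared spread, chosen after seeing the data, the 1-day additions gave 10, 24 and 20 in Kupffer cells and 18, 16 and 3 in monocytic macrophages. It gave 30 for Kupffer against monocytic with Ito cells at 1 day, 38 and 9 with HGF and Ito cells at 3 days, 23 (14 higher, 9 lower) for monocytic CD146 over time, and 3 each for the responses to HGF and CD146 cells at 1 day. The cause of these moves was not tested.

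Among results that passed in either fit, the direction reversed without the 3 arrays for Mki67 (1.45), Bub1b (1.13) and Ccne1 (1.13) in Kupffer against monocytic MCSF at 3 days, for Pcna (-0.53), Mcm2 (-1.18), Mcm3 (-0.80), Mcm4 (-0.76), Tyms (-0.86), Bub1 (-0.18) and Aurka (-1.27) in monocytic MCSF over time, and for Mki67 (-1.28) in the response to Ito cells at 3 days. With 1 array left out at a time, these ran from -1.02 to 1.45 for Mki67, -1.24 to 1.13 for Bub1b and -0.72 to 1.13 for Ccne1 in the first comparison, and from -1.18 to 1.03 for Mcm2, -0.18 to 3.07 for Bub1 and -1.27 to 0.70 for Aurka over time. The counts then ran from 0 to 7, 4 to 10 and 0 to 4 for the Kupffer additions at 1 day, from 2 to 4, 4 to 6 and 0 to 0 for the monocytic ones, and from 5 to 40, 20 to 40 and 1 to 22 for the monocytic ones at 3 days. For Kupffer against monocytic they ran from 18 to 30 with MCSF and 10 to 12 with Ito cells at 1 day, and from 6 to 29 with MCSF, 13 to 20 with HGF and 1 to 3 with Ito cells at 3 days. Over time they ran from 12 to 31 in monocytic MCSF and 5 to 6 in monocytic CD146, and for the responses from 0 to 2 with HGF and 0 to 1 with CD146 cells at 1 day and 7 to 29 with Ito cells at 3 days. The 3 Kupffer additions at 3 days kept a count of 40 throughout.

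With the replicate number as a block, 1415 of 1428 gene results kept their direction and side of the threshold, and 40 genes again passed in Kupffer cells with HGF at 3 days; deviations of same-numbered arrays correlated at -0.0103 on average, so the numbers were not used as pairs. No member had several probe sets, so the probe-set rule could not change a member's signals, and none of the 1428 results changed.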
